A study of Medicago truncatula with 4 samples.

Results

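The CYCLING DOF FACTOR (CDF) genes of *M. truncatula* were examined in calli that overexpressed *MtWOX9-1* and in wildtype calli. All genes whose deposited description begins with CYCLING DOF FACTOR were taken, which gave 14 genes of the 52709 in the count table. A description was given for 3784 of those genes, so a CDF gene without one would have been missed. The choice used names only and no measured value.

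RNA-seq counts came from 2 libraries of each genotype, *MtWOX9-1*-overexpressing and wildtype calli, both in the R108 background, an embryogenic line of this legume. The *MtWOX9-1*-overexpressing calli derived from R108 plants with an insertion from the pMDC32 vector, which drives the *MtWOX9-1* coding sequence from a constitutive viral promoter. The number of independent transformants behind these calli was not given in the sources used here. Leaves of plants kept for 35 days in soil were placed for 30 days on medium with 18 μM 2,4-D, an auxin, plus 2.22 μM BAP, a cytokinin. They then spent 5 days without hormones, and calli of both genotypes were collected on day 35. The labels do not say whether the replicates were separate cultures or at which time of day the calli were collected, so *p*-values measured only the spread between these samples.

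Dof proteins are plant-specific transcription factors with a zinc finger. CDF proteins were named in *Arabidopsis* for transcripts that cycle over the day. There they repress *CONSTANS* and *FLOWERING LOCUS T* (*FT*), act together with the corepressor TOPLESS, and are removed in long days by the blue-light F-box protein FKF1 with GIGANTEA, while clock proteins of the PSEUDO-RESPONSE REGULATOR family repress *CDF* transcription. In *M. truncatula*, a high level of a *CDFd1* gene delays flowering with less *MtFTa1* transcript, and in pea the flowering gene *LATE BLOOMER2* is a *CDF* homologue.

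The libraries held 6666866 and 6399209 counts for *MtWOX9-1*-overexpressing calli and 6065277 and 5241334 counts for wildtype calli. The overexpressed gene, *MtWOX9-1*, had 7692 and 7634 counts in *MtWOX9-1*-overexpressing calli, against 2 and 18 counts in wildtype calli, which matches the labels. Markers of other tissues differed between the groups as well. All 8 genes described as Root Cap genes were higher in *MtWOX9-1*-overexpressing calli, where they summed to 8534 and 13204 normalized counts, against 32.3 and 164 normalized counts in wildtype calli. All 5 plethora genes, which mark root and embryo meristems, were also higher, with sums of 3727 and 3022 normalized counts in *MtWOX9-1*-overexpressing calli and 72.1 and 367 in wildtype calli. The embryo maturation regulator *MtABI3* had 1043 and 959 normalized counts in *MtWOX9-1*-overexpressing calli and 0 and 24.1 in wildtype calli. In the first wildtype library 4 of the Root Cap genes, 2 of the plethora genes and *MtABI3* were at 0, and in the second 1 Root Cap gene was. The wildtype libraries thus differed from each other, with the second above the first for *MtWOX9-1*, both sums and *MtABI3*. The part of these tissues in the *CDF* results was not tested.

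Among the *CDF* genes, *MtCDFe3* was lower in *MtWOX9-1*-overexpressing calli by 2.32-fold, and *MtCDFb2* was higher by 2.14-fold. *MtCDFd1_23* was counted in *MtWOX9-1*-overexpressing calli alone, at a low level. The other 5 genes with enough counts for a test did not pass it, 4 genes had no count in any library, and 2 genes had 3 counts in a single library. In bulk samples, fewer cells that express a gene and less of its RNA per cell cannot be told apart.

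For the 8 genes with at least 10 counts over the libraries, edgeR's quasi-likelihood test was used, with *p*-values adjusted after Benjamini-Hochberg over all 24630 genes that reached this minimum. At an adjusted *p* under 0.05, 2 *CDF* genes were higher and 1 was lower in *MtWOX9-1*-overexpressing calli. That is 37.5% of the 8 tested genes, close to the 39.2% called among all genes tested, of which 20.2% were higher and 18.9% lower. At an unadjusted *p* under 0.05 there were 5 of the 8 *CDF* genes, against 49.5% of all genes tested. The values of both groups did not overlap for 7 of the 8 genes, and this held for 75.1% of all genes tested. The median log2 fold change was 0.94 for the 8 *CDF* genes, also with *MtCDFd1_23* set at its lower bound, and 0.04 for all genes tested. The median size of the change, whatever its sign, was 1.28 for the *CDF* genes and 0.62 for all genes on the log2 scale. The medians were not matched for level. Of the 8 *CDF* genes, 5 averaged under 10 normalized counts, where the median SE over all genes tested was 0.77. Whether the *CDF* genes changed more than other genes of like level was not tested.

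**Figure D1:**
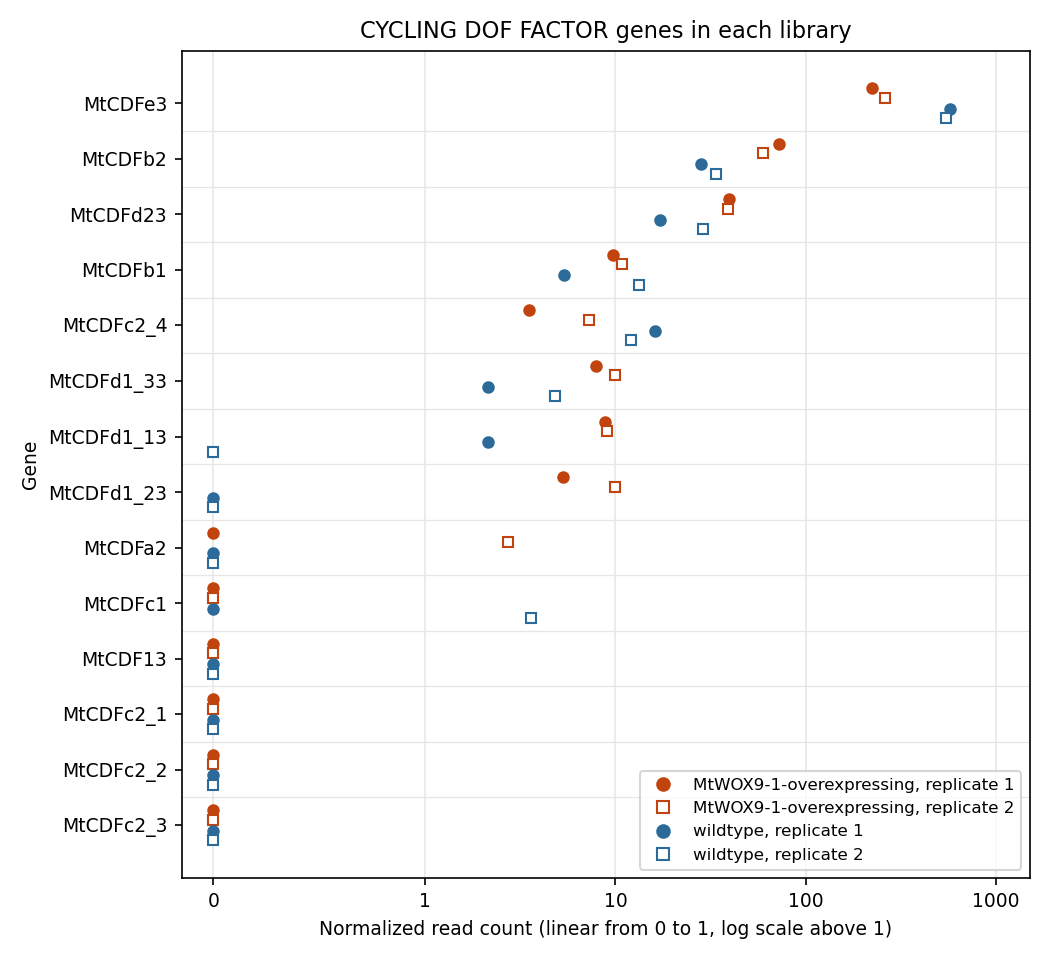
Normalized read count of the 14 *CDF* genes in each library, on an axis that is linear from 0 to 1 and logarithmic above 1; each row is a gene, orange marks are the *MtWOX9-1*-overexpressing libraries and blue marks the wildtype libraries, with circles for replicate 1 and squares for replicate 2. *MtCDFe3* lies highest, at 223 and 262 in *MtWOX9-1*-overexpressing calli and 574 and 548 in wildtype calli, and all marks of 4 genes lie at 0.

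*MtCDFe3* (MtrunA17Chr2g0283811, chromosome 2) was the most counted *CDF* gene. It had 253 and 289 counts in *MtWOX9-1*-overexpressing calli and 533 and 455 counts in wildtype calli. Scaled to equal effective library size, these were 223 and 262 normalized counts in *MtWOX9-1*-overexpressing calli, against 574 and 548 in wildtype calli. Both *MtWOX9-1*-overexpressing libraries were below both wildtype libraries, and the gap was wider than the spread within either genotype. The means were 242 ± 27.4 normalized counts in *MtWOX9-1*-overexpressing calli and 561 ± 18.6 in wildtype calli (SD, n = 2 each). The log2 fold change was -1.21 (SE 0.13, 95% interval -1.55 to -0.87), with an adjusted *p* of 0.0045 in edgeR's quasi-likelihood test. The gene was also called in all 8 alternative analyses, with adjusted *p* between 9.4e-07 and 0.020, and with each library left out in turn, where the log2 fold change lay between -1.33 and -1.10.

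Because *MtCDFe3* took most reads of the group, it set the direction of the summed level. All *CDF* genes together had 370 and 410 normalized counts in *MtWOX9-1*-overexpressing calli, against 645 and 644 in wildtype calli. Without *MtCDFe3* the order was the opposite, with 147 and 148 normalized counts in *MtWOX9-1*-overexpressing calli and 71.1 and 96.3 in wildtype calli. *MtCDFe3* held 60.2% (Wilson 95% interval 55.5 to 64.8) and 63.8% (59.3 to 68.1) of the *CDF* counts in *MtWOX9-1*-overexpressing calli. In wildtype calli it held 89.0% (86.2 to 91.2) and 85.0% (81.8 to 87.8) of 599 and 535 counts. The intervals of the genotypes did not overlap, though they cover counting error only. No gene lengths were used, so these shares follow read numbers and not transcript numbers.

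**Figure D2:**
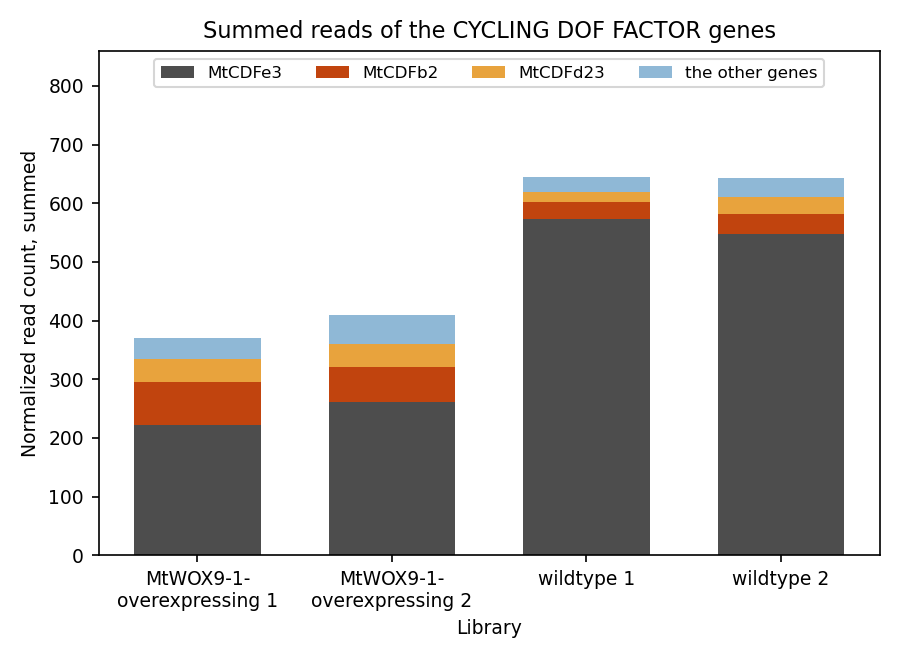
Summed normalized read count of the *CDF* genes in each library, with *MtWOX9-1*-overexpressing libraries on the left and wildtype libraries on the right; stacked colours stand for *MtCDFe3*, *MtCDFb2*, *MtCDFd23* and the other genes. The bars reach 370 and 410 in *MtWOX9-1*-overexpressing calli and 645 and 644 in wildtype calli, while the part above *MtCDFe3* is taller in *MtWOX9-1*-overexpressing calli.

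*MtCDFb2* (MtrunA17Chr6g0453321, chromosome 6) was next in read number. It had 82 and 66 counts in *MtWOX9-1*-overexpressing calli, against 26 and 28 counts in wildtype calli. The normalized counts were 72.2 and 59.7 in *MtWOX9-1*-overexpressing calli and 28.0 and 33.7 in wildtype calli. Here the *MtWOX9-1*-overexpressing pair was the higher one, with no overlap. The means were 66.0 ± 8.8 in *MtWOX9-1*-overexpressing calli and 30.8 ± 4.0 in wildtype calli (SD, n = 2 each), and the log2 fold change was 1.10 (SE 0.22, 95% interval 0.52 to 1.67, edgeR adjusted *p* = 0.018). The call was lost with DESeq2 (adjusted *p* = 0.12) and was kept in 7 of 8 alternatives, with adjusted *p* between 0.014 and 0.12. It was also lost without the first *MtWOX9-1*-overexpressing library (edgeR adjusted *p* = 0.073) and without the first wildtype library (0.075), while the log2 fold change stayed between 0.96 and 1.24 with any library left out.

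*MtCDFd23* (MtrunA17Chr8g0355261, chromosome 8) had 45 and 43 counts in *MtWOX9-1*-overexpressing calli and 16 and 24 counts in wildtype calli. The *MtWOX9-1*-overexpressing libraries lay close together, at 39.6 and 38.9 normalized counts, and the wildtype libraries lay below them and apart, at 17.2 and 28.9. The log2 fold change of 0.78 (SE 0.31, 95% interval -0.03 to 1.58) did not pass the test (edgeR adjusted *p* = 0.11).

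The CDFd1 genes are the group in which the flowering repressors of *M. truncatula* are known, and 3 of them were described in the annotation. *MtCDFd1_23* (MtrunA17Chr6g0460721, chromosome 6) had 6 and 11 counts in *MtWOX9-1*-overexpressing calli and 0 and 0 counts in wildtype calli. With wildtype set at 3 counts per library, a limit chosen for a count of 0, its mean level in *MtWOX9-1*-overexpressing calli was at least 2.23-fold higher. Bounds of this kind, here and elsewhere in the text, leave out the spread of the libraries in which the gene was counted. Its edgeR adjusted *p* was 0.029, the third call among the *CDF* genes. The call was lost with DESeq2 (adjusted *p* = 0.14), with a minimum of 1 count (0.0504), with the replicate number as a block (0.069), without the first *MtWOX9-1*-overexpressing library (0.061) and without the first wildtype library (0.0503). Without the second *MtWOX9-1*-overexpressing library only 6 counts were left, under the minimum of 10, and the gene was not tested. With edgeR's own filter it was not tested either. Over the 7 alternatives in which the gene was tested, the adjusted *p* lay between 0.013 and 0.14.

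*MtCDFd1_13* (MtrunA17Chr6g0460731) lies next to *MtCDFd1_23* in gene order on chromosome 6. It had 10 and 10 counts in *MtWOX9-1*-overexpressing calli and 2 and 0 counts in wildtype calli. The groups did not overlap, but the log2 fold change of 2.85 (SE 0.92, 95% interval 0.48 to 5.23) missed the threshold (edgeR adjusted *p* = 0.064). It passed with limma (adjusted *p* = 0.048) and without the first wildtype library (edgeR adjusted *p* = 0.030), with adjusted *p* over the alternatives between 0.048 and 0.28. With a library left out its log2 fold change lay between 2.00 and 6.21, the highest without the first wildtype library, which leaves wildtype at 0 counts, and the lowest without the second. Both neighbours share a gene identifier of an older annotation, and how reads between such copies were assigned is not given in the sources used here, so the split of reads between them is uncertain.

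*MtCDFd1_33* (MtrunA17Chr7g0254161, chromosome 7) had 9 and 11 counts in *MtWOX9-1*-overexpressing calli and 2 and 4 counts in wildtype calli. The order was that of the other CDFd1 genes, with the *MtWOX9-1*-overexpressing pair above the wildtype pair. Its log2 fold change of 1.35 (SE 0.59, 95% interval -0.17 to 2.86) did not pass the test (edgeR adjusted *p* = 0.13).

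*MtCDFb1* (MtrunA17Chr7g0217581, chromosome 7) was the one tested gene whose groups overlapped. It had 11 and 12 counts in *MtWOX9-1*-overexpressing calli and 5 and 11 counts in wildtype calli, or 9.69 and 10.9 normalized counts against 5.38 and 13.2. Its log2 fold change of 0.16 had an interval from -1.25 to 1.56 (SE 0.55, edgeR adjusted *p* = 0.84), so these counts leave changes of either direction possible.

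*MtCDFc2_4* (MtrunA17Chr5g0417601, chromosome 5) had 4 and 8 counts in *MtWOX9-1*-overexpressing calli, against 15 and 10 counts in wildtype calli. The *MtWOX9-1*-overexpressing libraries were the lower pair, as for *MtCDFe3*. The log2 fold change was -1.38 (SE 0.52, 95% interval -2.71 to -0.05), and the gene did not pass the test after adjustment (edgeR adjusted *p* = 0.093).

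**Figure D3:**
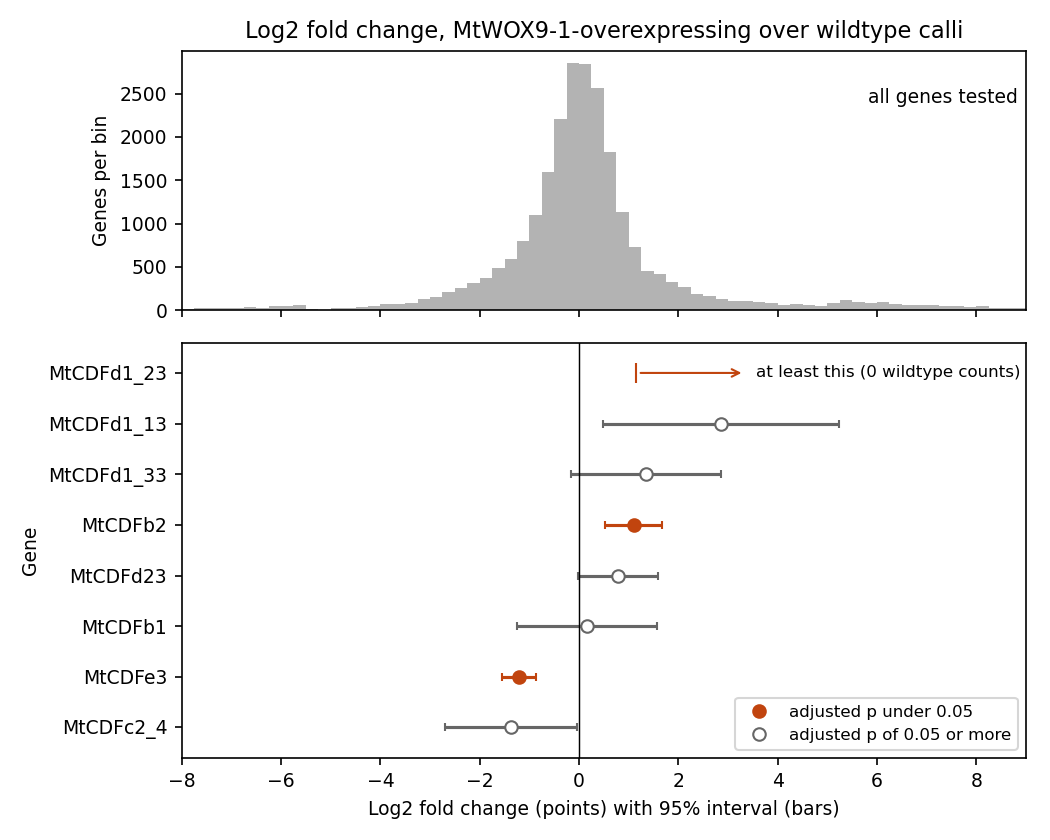
Log2 fold change of *MtWOX9-1*-overexpressing over wildtype calli for all genes tested (above, number of genes in bins 0.25 wide, with 147 genes beyond the drawn range) and for the 8 tested *CDF* genes (below, points with 95% intervals, filled where the adjusted *p* was under 0.05). *MtCDFd1_23*, with no wildtype count, is drawn as an arrow from its lower bound; *MtCDFe3* at -1.21 has the narrowest interval.

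The remaining genes were at or near 0. *MtCDFa2* (MtrunA17Chr3g0092111) had 0 and 3 counts in *MtWOX9-1*-overexpressing calli and 0 and 0 in wildtype calli. *MtCDFc1* (MtrunA17Chr4g0042481) had 0 and 0 counts in *MtWOX9-1*-overexpressing calli and 0 and 3 in wildtype calli. *MtCDF13* (MtrunA17Chr2g0308011), *MtCDFc2_1* (MtrunA17Chr5g0417571), *MtCDFc2_2* (MtrunA17Chr5g0417561) and *MtCDFc2_3* (MtrunA17Chr5g0417551) had 0 counts in all 4 libraries. The limit of 3 counts chosen for a count of 0 is 0.450 and 0.469 CPM (counts scaled to the library total) in *MtWOX9-1*-overexpressing calli. In wildtype calli it is 0.495 and 0.572 CPM. The transcripts at 0 were thus not detected at this depth. The gene identifiers are those of the A17 line, while the calli were R108. How reads were assigned between neighbouring copies such as *MtCDFc2_1*, *MtCDFc2_2* and *MtCDFc2_3* is not given. Whether reads were lost in these ways was not tested.

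Read depth set how precisely each gene could be compared. Of the 8 tested *CDF* genes, 5 averaged under 10 normalized counts, and 1 of those 5 was called. Over all genes tested, 23.5% were called below 10 normalized counts, where the median SE of the log2 fold change was 0.77. Between 100 and 1000 normalized counts, the range of *MtCDFe3*, 46.1% were called with a median SE of 0.15.

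In gene order, taken from the gene identifiers, the *CDF* genes formed 2 groups of close neighbours. *MtCDFc2_1*, *MtCDFc2_2* and *MtCDFc2_3* were next to each other on chromosome 5, and *MtCDFc2_4* followed 3 positions further on. The 3 adjacent genes were at 0, and *MtCDFc2_4* was counted in every library. The other group was *MtCDFd1_23* and *MtCDFd1_13* on chromosome 6. *MtCDFd1_23* was also 3 positions from *MtWOX11-2*, and *MtCDFd1_33* was 9 positions from *MtWOX11-1* on chromosome 7. *MtCDFe3* was 65 positions from *MtWOX9-1* on chromosome 2.

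The genes most like the leading *CDF* genes were sought among 1120 named genes with at least 50 normalized counts, by the distance between their centred log2 values over the 4 libraries. With 4 libraries in 2 genotypes this measure mainly reflects the difference between genotypes, and it is given as a description. For *MtCDFe3* the closest were *MtSWN*, a Polycomb group histone methyltransferase gene (distance 0.075), *MtCOLf*, a constans-like gene (0.084), and *MtMATE25*, a transporter gene (0.10). For *MtCDFb2* they were *AtE2Fe-like*, a gene described as an endoreduplication regulator (0.046), *MtNAR2.2*, described as a nitrate transporter component (0.084), and *SWIB-1*, a gene for a SWIB domain protein (0.090).

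Genes that act before and after CDF proteins in *Arabidopsis* were then examined in the same fit. The clock list held 13 genes by symbol or description, of which 12 were tested and *MtEFL3* was at 0 in all libraries. In *MtWOX9-1*-overexpressing calli 3 of the 12 were higher, 6 were lower and 3 did not pass. This is 75.0% called, with a median log2 fold change of -0.49, against 39.2% and 0.04 for all genes tested. The share over all genes was not matched for level. Between 100 and 1000 normalized counts, where most of the tested clock genes lay, it was 46.1%. The calls had no single direction among the pseudo-response regulators, of which *MtPRR4* and *MtPRR6* were higher and *MtPRR2*, *MtPRR3* and *MtPRR5* were lower. The time of day of collection was not given for either genotype. For clock and *CDF* genes, a difference in that time could not be told apart from a difference between genotypes, and it was not tested.

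A gene described as early flowering protein 4 (MtrunA17Chr3g0113431), a component of the evening clock complex in *Arabidopsis*, changed most among the called clock genes. It had 239 and 262 counts in *MtWOX9-1*-overexpressing calli and 1205 and 693 counts in wildtype calli. The wildtype libraries differed from each other, but both were far above the *MtWOX9-1*-overexpressing libraries, and the gene was 4.76-fold lower in *MtWOX9-1*-overexpressing calli (log2 fold change -2.25, SE 0.25, edgeR adjusted *p* = 0.0045). A related gene described as EFL4 (MtrunA17Chr8g0343731) had 58 and 40 counts in *MtWOX9-1*-overexpressing calli and 120 and 88 in wildtype calli, and was lower as well (log2 fold change -1.43, SE 0.23, edgeR adjusted *p* = 0.011). Another gene with the EFL4 description (MtrunA17Chr2g0300391) was higher, with 60 and 51 counts in *MtWOX9-1*-overexpressing calli and 25 and 15 in wildtype calli (log2 fold change 1.13, SE 0.28, edgeR adjusted *p* = 0.031). This higher gene was called in 6 of 8 alternatives, with adjusted *p* between 0.020 and 0.19. With a library left out its log2 fold change lay between 0.88 and 1.45. Genes with the same description thus moved in opposite directions in these libraries.

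Pseudo-response regulators are clock repressors that are expressed one after another through the day in *Arabidopsis*. *MtPRR6* had 282 and 290 counts in *MtWOX9-1*-overexpressing calli and 67 and 93 in wildtype calli (log2 fold change 1.48, SE 0.22, edgeR adjusted *p* = 0.0089). *MtPRR4* had 434 and 439 counts in *MtWOX9-1*-overexpressing calli and 211 and 183 in wildtype calli (0.80, SE 0.11, edgeR adjusted *p* = 0.0072). In both genes the *MtWOX9-1*-overexpressing pair lay above the wildtype pair. *MtPRR5* had 658 and 734 counts in *MtWOX9-1*-overexpressing calli and 977 and 778 in wildtype calli (-0.68, SE 0.14, edgeR adjusted *p* = 0.018). *MtPRR3* had 318 and 405 counts in *MtWOX9-1*-overexpressing calli and 509 and 525 in wildtype calli (-0.87, SE 0.18, edgeR adjusted *p* = 0.018). These lay the other way, as did *MtPRR2* (-0.69, edgeR adjusted *p* = 0.030). *MtPRR1* did not pass (-0.38, edgeR adjusted *p* = 0.059). *MtPRR7* had 71 and 51 counts in *MtWOX9-1*-overexpressing calli and 0 and 13 in wildtype calli, and did not pass either (2.84, edgeR adjusted *p* = 0.067). Its log2 fold change lay between 1.79 and 8.85 with a library left out, the highest without the second wildtype library, which leaves wildtype at 0 counts, and it was called in 2 of these 4 fits (edgeR adjusted *p* between 0.0037 and 0.21). *MtLHY*, the homologue of a morning clock gene, had 142 and 163 counts in *MtWOX9-1*-overexpressing calli and 58 and 93 in wildtype calli and did not pass (0.65, edgeR adjusted *p* = 0.15). With a library left out its log2 fold change lay between 0.28 and 1.13, and it was called in 1 of 4 fits (edgeR adjusted *p* between 0.023 and 0.40).

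The gene described as FKF1 (MtrunA17Chr8g0391901), the F-box protein that removes CDF proteins in *Arabidopsis*, had 205 and 175 counts in *MtWOX9-1*-overexpressing calli and 241 and 210 in wildtype calli. The raw counts were close, and after scaling for library size the values were 181 and 158 normalized counts in *MtWOX9-1*-overexpressing calli and 259 and 253 in wildtype calli. The log2 fold change was -0.60 (SE 0.13, edgeR adjusted *p* = 0.022), with adjusted *p* over the alternatives between 0.016 and 0.094. No GIGANTEA gene was analysed here. Of the 9 called clock genes, 5 were called in all 8 alternatives, namely both lower early flowering 4 genes, *MtPRR3*, *MtPRR4* and *MtPRR6*, and all of these but *MtPRR3* were also called with each library left out.

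The photoperiod and flowering list held 22 genes, of which 16 were tested. In *MtWOX9-1*-overexpressing calli 1 gene was higher, 7 were lower and 8 did not pass, so that 8 of 16 were called, against 39.2% of all genes tested, with a median log2 fold change of -0.42. The FT genes examined, homologues of the gene that *Arabidopsis* CDF proteins repress, were not detected. An FT gene without a symbol or description would have been missed, since only *MtFTa1* was sought by name in the count table. *MtFTb1*, *MtFTb2*, *MtFTc* and *MtFTa1*, the last identified by its name in the count table, had 0 counts in all 4 libraries, as did *MtFDa* and *MtTFL1*.

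The constans-like genes differed among themselves. *MtCOLf* had 115 and 125 counts in *MtWOX9-1*-overexpressing calli and 244 and 195 in wildtype calli, and was 2.32-fold lower (log2 fold change -1.21, SE 0.14, edgeR adjusted *p* = 0.0048). *MtCOLi* had 0 and 0 counts in *MtWOX9-1*-overexpressing calli and 9 and 7 in wildtype calli, at least 3.38-fold lower against 3 counts per library (edgeR adjusted *p* = 0.015). Both were thus lower in *MtWOX9-1*-overexpressing calli, and the remaining constans-like genes were not called. *MtCOLd* had 248 and 213 counts in *MtWOX9-1*-overexpressing calli and 171 and 170 in wildtype calli (log2 fold change 0.08, SE 0.14, edgeR adjusted *p* = 0.67). *MtCOLk* had 42 and 35 counts in *MtWOX9-1*-overexpressing calli and 39 and 37 in wildtype calli (-0.33, SE 0.21, edgeR adjusted *p* = 0.27). *MtCOLa* had 5 counts in the first wildtype library alone.

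Among the SOC1 genes, MADS-box integrators of flowering signals, 2 were counted in wildtype calli alone. *MtSOC1b* had 0 and 0 counts in *MtWOX9-1*-overexpressing calli and 42 and 25 counts in wildtype calli, at least 14.1-fold lower (edgeR adjusted *p* = 0.0059). *MtSOC1a* had 0 and 0 counts in *MtWOX9-1*-overexpressing calli and 23 and 17 in wildtype calli, at least 8.44-fold lower (edgeR adjusted *p* = 0.0070). The third gene, *MtSOC1c*, had 0 and 10 counts in *MtWOX9-1*-overexpressing calli and 31 and 36 in wildtype calli and did not pass (edgeR adjusted *p* = 0.057), though it was called in 2 of 4 fits with a library left out (edgeR adjusted *p* between 0.015 and 0.11). *MtCOLf*, *MtSOC1a* and *MtSOC1b* were called in all 8 alternatives and with each library left out, and none of the other 5 called flowering genes was.

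The corepressor *MtTPL*, homologous to the TOPLESS partner of CDF proteins, had 1676 and 1742 counts in *MtWOX9-1*-overexpressing calli and 2263 and 1851 in wildtype calli (log2 fold change -0.61, SE 0.13, edgeR adjusted *p* = 0.019). Its relative *MtTPR4* had 1150 and 1074 counts in *MtWOX9-1*-overexpressing calli and 1312 and 1180 in wildtype calli (-0.51, SE 0.11, edgeR adjusted *p* = 0.023). In both genes the *MtWOX9-1*-overexpressing pair lay below the wildtype pair, and the other 4 TOPLESS-related genes did not pass. Among the 8 alternatives *MtTPL* was called in 7 and *MtTPR4* in 6. With a library left out the log2 fold change lay between -0.67 and -0.55 for *MtTPL* and between -0.54 and -0.49 for *MtTPR4*. *MtTPR4* lost its call whichever library was left out, and *MtTPL* lost it in most of these fits. The light receptor gene *MtPHYB* was also lower (-0.51, edgeR adjusted *p* = 0.037). It was called in only 3 of 8 alternatives, with adjusted *p* between 0.027 and 0.13. With a library left out the log2 fold change of *MtPHYB* lay between -0.62 and -0.42, and its call was lost whichever library this was. *MtFDb* had 7 and 9 counts in *MtWOX9-1*-overexpressing calli and 0 and 0 in wildtype calli, at least 2.09-fold higher (edgeR adjusted *p* = 0.023). No called gene of either list turned its direction under another scaling.

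**Figure D4:**
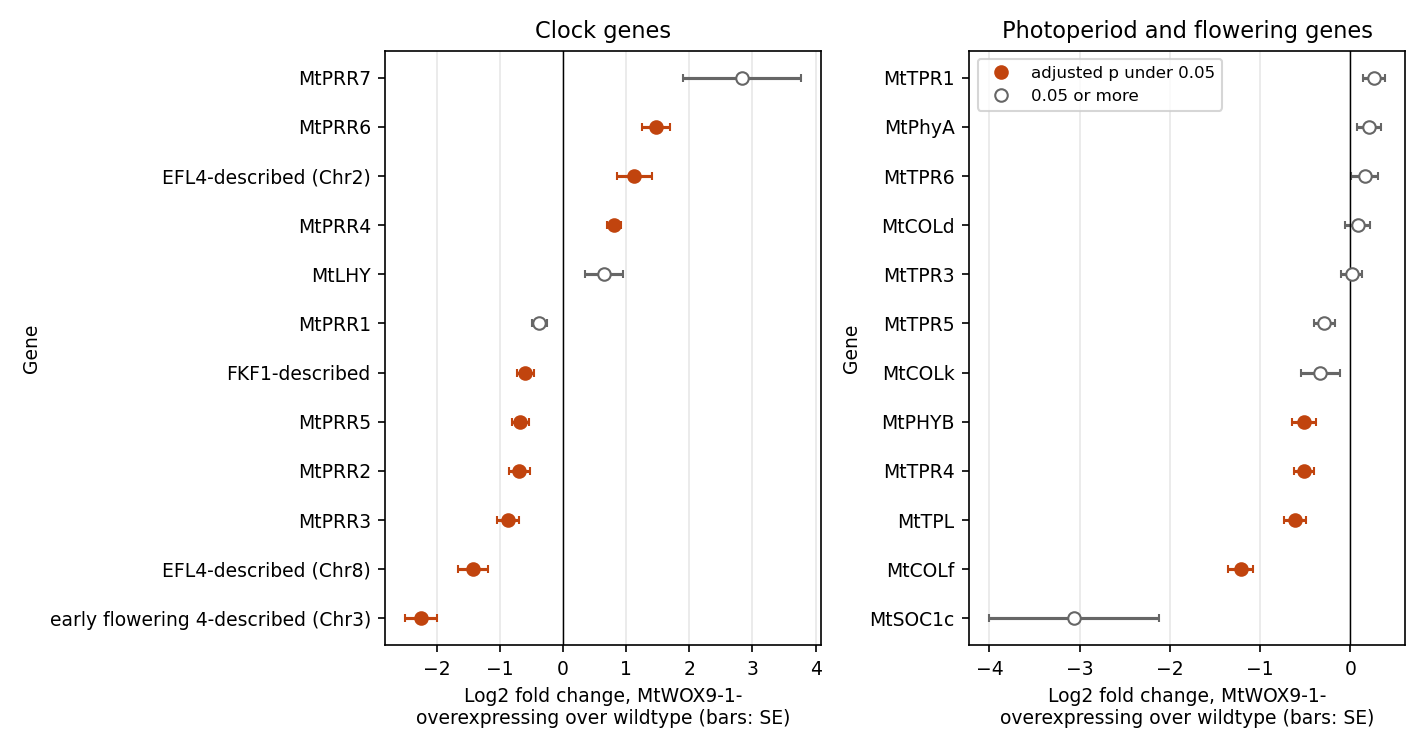
Log2 fold change of *MtWOX9-1*-overexpressing over wildtype calli for the tested clock genes (left) and photoperiod and flowering genes (right), with bars for the SE and filled points where the adjusted *p* was under 0.05. *MtSOC1a*, *MtSOC1b*, *MtCOLi* and *MtFDb*, which had 0 counts in both libraries of a genotype, are left out; clock genes lie on both sides of 0, and the called flowering genes that are drawn lie below it.

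The only Dof gene outside the CDF group that the annotation described, *MtDASH*, had 0 and 1 counts in *MtWOX9-1*-overexpressing calli and 0 and 0 in wildtype calli and was not tested.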

How the data were processed

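Per the labels, polyA RNA libraries were made from calli, and the submitters' processing notes name Trimmomatic, HISAT2, StringTie and DESeq; versions, strand and treatment of reads from gene copies are not given in the sources used here. The authors deposited whole-number read counts for 52709 genes, and a table of DESeq-normalized values (signal), in which each column was the count times a constant (0.873 and 0.903 for the *MtWOX9-1*-overexpressing libraries, 1.06 and 1.18 for wildtype). That table also holds the authors' fold changes and *p*-values, which were not used. No per-sample column was left unused (0).

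Counts were tested with edgeR 4.0.16 (quasi-likelihood, two-sided, TMM scaling, at least 10 counts in total, R 4.3.3), with adjustment after Benjamini-Hochberg over 24630 genes. TMM factors were 1.04 and 1.06 for *MtWOX9-1*-overexpressing and 0.937 and 0.970 for wildtype libraries. A normalized count is the count divided by the effective library size, times the mean effective library size. With 2 libraries in each group, an exact permutation test of a single gene cannot go below *p* = 0.333. Replicates were not one library deposited again, since their counts differed beyond sampling noise (chi-square per degree of freedom 7.71 for *MtWOX9-1*-overexpressing and 6.80 for wildtype calli).

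The text names every *CDF* gene, up to 6 called genes of each list by adjusted *p*, and the 3 genes most like *MtCDFe3* and *MtCDFb2*. It also names the FT, constans-like and FKF1 genes of the lists, and *MtFTa1*. The remaining clock genes, SOC1 genes, *MtTPL*, *MtTPR4*, *MtPHYB* and *MtFDb*, where outside this rule, were named after their values were seen. Lists (other Dof, clock, photoperiod and flowering, Root Cap, plethora, embryo maturation) were read from the deposited symbols and descriptions. The genes and lists were chosen with earlier results of these data known. Of the 14 *CDF* genes, 0 matched the RefSeq gene table by identifier, so no sequences or coordinates are printed. Alternatives used DESeq2 1.42.0, limma 3.58.1 (log2 scale, pseudocount 1), other scalings and count minimums, a replicate block, stricter thresholds and each library left out. The scripts were tested on simulated data.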

Additional observations from a re-analysis of the deposited data

How the results depend on the processing

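Of 92 comparisons of the 8 tested *CDF* genes under other settings, 81 kept direction and side of the threshold. These include uncalled genes that stayed uncalled. The call was lost in 8 comparisons, all of *MtCDFb2* or *MtCDFd1_23*, the 2 higher genes, and was gained in 2. The direction reversed in 1, that of *MtCDFb1* without the first wildtype library. Its log2 fold change was -0.36 there, and -0.36 to 0.92 with any library left out. The number of higher *CDF* genes, 2, became 0 with DESeq2, 1 with a minimum of 1 count, 1 with edgeR's own filter, 3 with limma and 0 at an adjusted *p* under 0.01, and lay between 0 and 2 with a library left out (0 without the first *MtWOX9-1*-overexpressing, 1 without the second *MtWOX9-1*-overexpressing or the first wildtype library). The 1 lower gene was kept throughout. The 6 lower clock genes became 1 at an adjusted *p* under 0.01 and 2 with an absolute log2 fold change over 1 as well, and 3 to 5 with a library left out (3 without the first of either genotype). The 1 higher flowering gene became 0 with DESeq2, 0 with edgeR's filter, 0 at an adjusted *p* under 0.01 and 0 to 1 with a library left out (0 without either *MtWOX9-1*-overexpressing library). The 7 lower ones became 3 at an adjusted *p* under 0.01, 4 with the fold threshold and 3 to 5 with a library left out (3 without the first and 4 without the second wildtype library). Over all genes, 4985 were higher and 4660 lower. These became 1907 and 2023 at an adjusted *p* under 0.01, 3331 and 3101 with DESeq2, and 2696 to 4465 and 2935 to 3858 with a library left out, both lowest without the first *MtWOX9-1*-overexpressing library. Apart from fewer samples and stricter thresholds, the cause was not tested.

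With the replicate number as a replicate block, 1 *CDF* gene, 0 flowering genes and 2 clock genes were higher, against 2, 1 and 3 without it, while 3 clock and 3 flowering genes were lower. Same-numbered libraries did not deviate together (correlation -0.0233, 2 pairs), so the numbers were not taken to pair the samples. Scaling by library size alone shifted the median of all genes to 0.18 and the share of calls that were higher to 60.5%, against 51.7% with TMM. The 5 *CDF* genes under 10 normalized counts are limited by depth.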

Other observations

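The CDFd1 genes lie in 2 stretches of the genome, on chromosomes 6 and 7, that hold members of the same gene families within 10 positions of them. These neighbours were chosen after their values were seen and are given as values. *MtWOX11-2*, beside *MtCDFd1_23* and *MtCDFd1_13*, had 2453 and 2032 counts in *MtWOX9-1*-overexpressing calli and 1807 and 1873 in wildtype calli, and did not pass the test (log2 fold change -0.07, edgeR adjusted *p* = 0.75). *MtWOX11-1*, near *MtCDFd1_33*, had 44 and 17 counts in *MtWOX9-1*-overexpressing calli and 0 and 0 in wildtype calli (edgeR adjusted *p* = 0.019). Of the PSY genes, which encode signalling peptides, *MtPSY7* and *MtPSY3* in the chromosome 6 stretch were at 0 in all libraries. *MtPSY8* in that stretch had 0 and 0 counts in *MtWOX9-1*-overexpressing calli and 10 and 6 in wildtype calli (at least 3.36-fold lower against 3 counts per library, edgeR adjusted *p* = 0.017). *MtPSY9* had 465 and 626 counts in *MtWOX9-1*-overexpressing calli and 1025 and 723 in wildtype calli (log2 fold change -1.02, edgeR adjusted *p* = 0.020, lost in 2 of 4 fits with a library left out). *MtPSY10*, beside *MtCDFd1_33*, had 49 and 47 counts in *MtWOX9-1*-overexpressing calli and 0 and 3 in wildtype calli (4.55, edgeR adjusted *p* = 0.010). It was called with each library left out, but its log2 fold change then lay between 3.52 and 8.51, the highest without the second wildtype library, which leaves wildtype at 0 counts. *MtMYB099* had 126 and 160 counts in *MtWOX9-1*-overexpressing calli and 453 and 361 in wildtype calli (-1.85, edgeR adjusted *p* = 0.0036). Of the 8 tested neighbours on chromosome 6, 1 was higher and 3 were lower in *MtWOX9-1*-overexpressing calli. Of the 11 on chromosome 7, 4 were higher and 2 were lower. Over all genes tested, 39.2% were called. MtrunA17Chr7g0254101 on chromosome 7 had the lowest adjusted *p* of these neighbours (-3.76, edgeR adjusted *p* = 0.0026). It had 25 and 39 counts in *MtWOX9-1*-overexpressing calli and 381 and 304 in wildtype calli. The higher one on chromosome 6, MtrunA17Chr6g0460791, had 77 and 88 counts in *MtWOX9-1*-overexpressing calli and 25 and 32 in wildtype calli (1.18, edgeR adjusted *p* = 0.020), and was called in 1 of 4 fits with a library left out. Whether their values are related to those of the CDFd1 genes was not tested.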
